A study of Mus musculus with 9 samples.

Results

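The 9 genes described here are Trem2, Tyrobp, Apoe, Gpnmb, Lgals3, Cd9, Cd63, Fabp5 and Lipa, a signature of macrophages that take up and break down lipid. They were picked out by gene symbol, and all 9 were found among the 55414 genes of the deposited tables. The set was chosen with earlier results of these data known, so its counts beside the shares of all genes are descriptive. Levels came from RNA-seq of alveolar tissue of male wild type C57BL/6J mice, captured by laser microdissection from snap-frozen lung and labelled as mainly fibroblasts. The PDK4-IN group (3 libraries) came from mice that aged naturally to 20 months and then received PDK4-IN, an anthraquinone-derived inhibitor of pyruvate dehydrogenase kinase 4, once every 2 weeks for 4 months. The Aged group (3 libraries) came from naturally aged mice without PDK4-IN, for which the protocol names vehicle though no library label does, and both groups were examined at 24 months. The Young group (3 libraries) came from younger mice whose age the labels do not give. Captured cells were combined before RNA extraction, and no label ties a library to one animal, so p-values measure only the spread between libraries, which may be technical. Sheet names in the deposited files speak of bleomycin and of PCC1, another compound of the study, and the groups here follow the column names and sample labels instead.

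TREM2 is a lipid-sensing receptor of macrophages and microglia that has no signalling tail of its own. It pairs with the adaptor DAP12, the product of Tyrobp, which recruits the kinase SYK. In mice and people, macrophages that carry TREM2 gather around dying fat cells, in atherosclerotic plaque and in scarred lung, where they take up lipoproteins and debris, split cholesteryl esters in lysosomes and export the cholesterol. The other 7 genes encode a lipoprotein ligand of TREM2 (Apoe), a membrane glycoprotein of phagocytes (Gpnmb), a galectin (Lgals3), a pair of tetraspanins (Cd9 and Cd63), a fatty acid carrier (Fabp5) and a lysosomal lipase (Lipa).

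The libraries held 19456303 to 26660364 counts each. Collagen gene Col1a1 averaged 2712 ± 137 CPM (counts scaled to a common library total, counts-per-million) in PDK4-IN, 2256 ± 18.9 in Aged and 3091 ± 131 in Young libraries, and Pdgfra, a fibroblast receptor, 122 ± 10.5, 153 ± 1.23 and 139 ± 7.25 CPM in the same order (SD, n = 3 each). Of the 13 fibroblast markers, 10 reached 1 CPM in each group, whereas Tcf21, a transcription factor of lung lipofibroblasts, had 10, 0 and 27 counts over the 3 libraries of PDK4-IN, Aged and Young, and Inmt had 0, 1 and 1. The epithelial markers were mixed. The alveolar type 2 cell marker Sftpc averaged at most 0.217 CPM, and of the 9 type 2 markers only Abca3 reached 1 CPM (58.0 in PDK4-IN, 74.8 in Aged and 67.7 in Young libraries). The type 1 marker Ager averaged at most 0.904 CPM, whereas 6 of the 8 type 1 markers reached 1 CPM in each group, among them Pdpn (379, 329 and 233 CPM) and Cav1 (328, 316 and 535 CPM), which fibroblasts and endothelium also express. Young replicate 3 stood apart within its group (chi-square of the counts per gene 17.2 to 17.5, where sampling noise gives about 1, against the other 2 Young libraries, which differed from each other by 2.93), and PDK4-IN replicates 1 and 3 differed by 15.8, whereas the Aged pairs differed by 2.51 to 2.88. Results that rest on those libraries are given below also without them.

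Promoters of 7 of the 9 genes were matched in RefSeq (build GRCm38.p6), each from 250 bases before to 50 bases after the transcription start, and 3 are shown because their genes moved in different ways. Trem2 and Gpnmb were lower in PDK4-IN than in Aged libraries and Cd63 was higher. Capitals mark matches to the AP-1 motif TGANTCA, searched on both strands. The windows, all on the plus strand, lie at chr17:48346151-48346450 (Trem2), chr6:49036268-49036567 (Gpnmb) and chr10:128909095-128909394 (Cd63).
Trem2: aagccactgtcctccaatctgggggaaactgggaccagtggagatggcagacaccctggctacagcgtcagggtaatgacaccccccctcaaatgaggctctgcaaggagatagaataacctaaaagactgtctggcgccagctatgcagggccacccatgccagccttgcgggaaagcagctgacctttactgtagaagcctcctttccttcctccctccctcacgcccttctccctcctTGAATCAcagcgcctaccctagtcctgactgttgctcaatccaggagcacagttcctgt
Gpnmb: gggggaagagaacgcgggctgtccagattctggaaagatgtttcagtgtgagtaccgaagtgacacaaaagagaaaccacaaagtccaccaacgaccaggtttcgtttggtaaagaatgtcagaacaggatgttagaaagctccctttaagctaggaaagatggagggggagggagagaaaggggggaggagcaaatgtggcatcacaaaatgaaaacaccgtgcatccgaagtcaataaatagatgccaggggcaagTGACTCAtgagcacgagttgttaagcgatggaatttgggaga
Cd63: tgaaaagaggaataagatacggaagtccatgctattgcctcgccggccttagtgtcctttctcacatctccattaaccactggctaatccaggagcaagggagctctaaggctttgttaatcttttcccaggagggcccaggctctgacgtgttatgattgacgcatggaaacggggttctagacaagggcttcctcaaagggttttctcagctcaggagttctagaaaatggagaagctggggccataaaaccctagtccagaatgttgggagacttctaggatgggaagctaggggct
The match lies 9 bases before the Trem2 start and 8 bases after the Gpnmb start. Among all 32851 promoter windows of the same length, 7.81% held it, and no other window of these genes did. Of 4 further motifs searched on both strands, CACGTG (7.15% of all windows) and GAGGAAGT (3.2%) had no match in these windows, TTGCNNAA (10.8%) had 1 in Trem2, 22 bases after the start, and CATGTG (14.2%) had 1 in Cd9, 38 bases before it, and no matches overlapped each other. A match is a description of these letters and not a measured binding site.

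The first comparison asked what PDK4-IN did to these genes in aged lungs. Of the 9 genes, 8 were lower in PDK4-IN than in Aged libraries and 1, Cd63, was higher, by edgeR's quasi-likelihood test at a Benjamini-Hochberg adjusted p under 0.05 over 16275 genes. Among all genes tested, 49.6% passed in either direction, 25.7% lower and 23.9% higher. The falls spanned a wide range, and 5 of the 9 genes (Trem2, Tyrobp, Apoe, Gpnmb and Fabp5) were at least 4-fold lower, a size reached by 3.47% of all genes, and none was at least 4-fold higher (0.0922% of all genes). The ranges of PDK4-IN and Aged libraries did not overlap for any of the 9, as for 58.4% of all genes. The second comparison asked how these genes differed with age. It ran the other way, with 8 genes higher and 1, Cd63, lower in Aged than in Young libraries, where 40.4% of 16123 genes passed (21.4% higher, 19.0% lower), and 5 were at least 4-fold higher (4.33% of all genes) and none at least 4-fold lower (0.236%). None of the 9 had overlapping ranges between Aged and Young libraries, as for 53.1% of all genes. Tyrobp, with 7 counts over the Young libraries, passed the filter on low counts in this comparison only through the Aged group. Its place among the higher genes was thus largely fixed by the filter. All 9 calls held in the first comparison without PDK4-IN replicate 1 or 3, and in the second without Young replicate 3. Both comparisons share the Aged libraries, so a chance deviation there would move both in opposite directions.

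**Figure D1:**
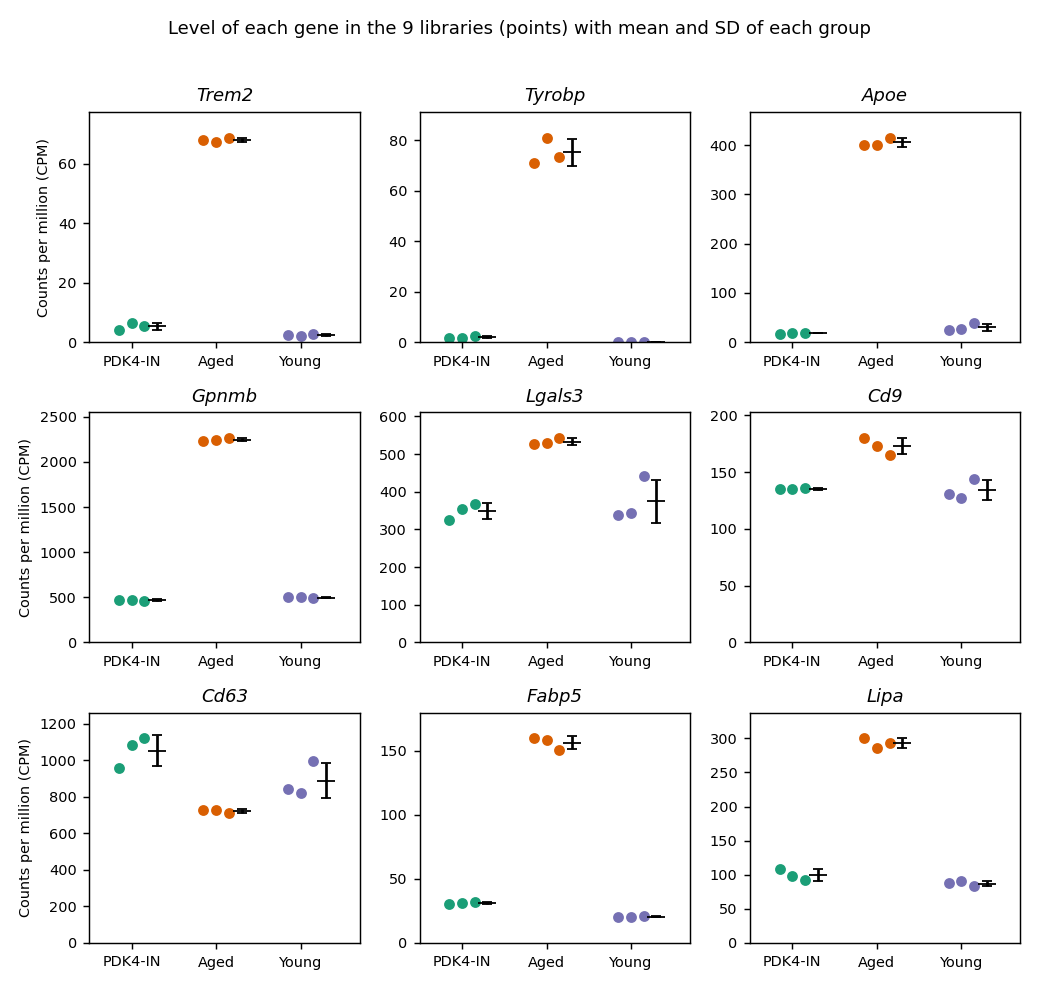
Level of each of the 9 genes in CPM (linear axis from 0), with 1 point per library and the group mean ± SD beside the points, for PDK4-IN, Aged and Young (3 libraries each). Aged libraries were the highest for every gene except Cd63, for which they were the lowest.

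Trem2, the lipid receptor itself, had 4.04, 6.43 and 5.54 CPM in PDK4-IN libraries, against 68.0, 67.4 and 68.8 CPM in Aged and 2.32, 2.18 and 2.78 CPM in Young libraries. All Aged libraries were high and close together, and the 3 groups did not overlap. The log2 fold change was -3.66 ± 0.12 (SE; adjusted p = 5.7e-10, edgeR) in PDK4-IN against Aged, a 12.7-fold fall, and 4.80 ± 0.09 (adjusted p = 3.2e-11) in Aged against Young. The Young level rested on 147 counts over 3 libraries.

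Tyrobp, which encodes the adaptor DAP12, had 1.69, 1.81 and 2.42 CPM in PDK4-IN libraries, against 71.1, 81.0 and 73.2 CPM in Aged and 0, 0.186 and 0.154 CPM in Young libraries. It showed the widest separation of the 9 genes, with Young near 0 and no overlap between groups. PDK4-IN was 37.7-fold lower than Aged (log2 fold change -5.23 ± 0.12, adjusted p = 2.5e-11, edgeR). Young libraries held 7 counts in all, so the Aged to Young ratio of summed CPM was 651 with an exact 95% interval of 316 to 1621, which covers counting error only. The receptor and its adaptor did not keep one proportion. By TPM (the deposited level per transcript length), Trem2 over Tyrobp was 1.15, 1.83 and 1.10 in PDK4-IN, against 0.527, 0.458 and 0.491 in Aged libraries. In Young it was 6.13 and 7.49 in replicates 2 and 3, from at most 4 Tyrobp counts a library, and Tyrobp was listed at 0 in replicate 1.

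Apoe encodes apolipoprotein E, the lipoprotein component that binds TREM2 and carries cholesterol out of macrophages. It had 17.4, 18.1 and 18.6 CPM in PDK4-IN libraries, against 400.2, 401 and 416 CPM in Aged and 24.3, 26.1 and 38.7 CPM in Young libraries. The PDK4-IN libraries lay below all Young libraries, a place that among the 9 genes only Gpnmb shared. Apoe was 22.3-fold lower in PDK4-IN than in Aged (log2 fold change -4.48 ± 0.06, adjusted p = 6.0e-13, edgeR) and 13.5-fold higher in Aged than in Young (3.76 ± 0.14, adjusted p = 7.3e-09).

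Gpnmb, a glycoprotein of phagocytes and pigment cells, was the most counted of the 9 in Aged libraries. It had 471, 474 and 455 CPM in PDK4-IN libraries, against 2229, 2246 and 2266 CPM in Aged and 499, 499 and 492 CPM in Young libraries. PDK4-IN libraries lay just below Young libraries, and the Aged libraries stood alone above both. The log2 fold change was -2.26 ± 0.04 (4.79-fold lower, adjusted p = 4.4e-12, edgeR) in PDK4-IN against Aged and 2.16 ± 0.04 (4.48-fold, adjusted p = 3.5e-11) in Aged against Young. In CPM Gpnmb made up 21.6% ± 1.29 of the sum of the 9 genes in PDK4-IN, 48.1% ± 0.259 in Aged and 24.5% ± 2.07 in Young libraries (SD, n = 3 each).

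Fabp5 encodes a carrier that moves fatty acids inside the cell. It had 30.1, 31.1 and 31.7 CPM in PDK4-IN libraries, against 160, 158 and 151 CPM in Aged and 20.2, 20.5 and 21.0 CPM in Young libraries. The groups lay apart in the order Aged, PDK4-IN, Young, each with a spread of a few percent. PDK4-IN was 5.02-fold lower than Aged (log2 fold change -2.33 ± 0.06, adjusted p = 5.4e-11, edgeR), and Aged was 7.53-fold higher than Young (2.91 ± 0.06, adjusted p = 5.0e-11).

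Lipa, the lysosomal acid lipase that splits cholesteryl esters and triglycerides, had 108, 98.8 and 91.9 CPM in PDK4-IN libraries, against 300.1, 285 and 293 CPM in Aged and 87.6, 90.2 and 83.3 CPM in Young libraries. PDK4-IN libraries lay just above Young and far below Aged. The log2 fold change was -1.55 ± 0.06 (2.92-fold lower, adjusted p = 2.5e-09, edgeR) in PDK4-IN against Aged and 1.74 ± 0.05 (3.34-fold, adjusted p = 1.3e-09) in Aged against Young.

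Lgals3 and Cd9 moved the same way by small amounts. Lgals3, which encodes galectin-3, a sugar-binding protein of many cell types, had 326, 355 and 368 CPM in PDK4-IN libraries, against 527, 528 and 543 CPM in Aged and 337, 345 and 441 CPM in Young libraries. Young replicate 3 was its highest library outside the Aged group. Its log2 fold change was -0.60 ± 0.06 (adjusted p = 8.2e-06, edgeR) in PDK4-IN against Aged and 0.50 ± 0.09 (adjusted p = 0.0015) in Aged against Young. Cd9, a tetraspanin of the cell surface, had 135, 135 and 136 CPM in PDK4-IN libraries, against 180.0, 173 and 165 CPM in Aged and 131, 127 and 144 CPM in Young libraries. Its log2 fold change was -0.34 ± 0.05 (adjusted p = 0.00022) in PDK4-IN against Aged and 0.36 ± 0.06 (adjusted p = 0.0012) in Aged against Young.

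Cd63, the tetraspanin of late endosomes and lysosomes found in most cell types, ran against the others. It had 957, 1084 and 1121 CPM in PDK4-IN libraries, against 727, 730.3 and 713 CPM in Aged and 846, 822 and 999 CPM in Young libraries. Aged libraries were the lowest, and PDK4-IN replicate 1 and Young replicate 3 brought the other groups into overlap. Cd63 was 1.47-fold higher in PDK4-IN than in Aged (log2 fold change 0.55 ± 0.06, adjusted p = 3.3e-05, edgeR) and lower in Aged than in Young (-0.31 ± 0.07, adjusted p = 0.0053). It made up 48.7% ± 1.84 of the CPM sum of the 9 genes in PDK4-IN, 15.5% ± 0.233 in Aged and 43.7% ± 1.22 in Young libraries.

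**Figure D2:**
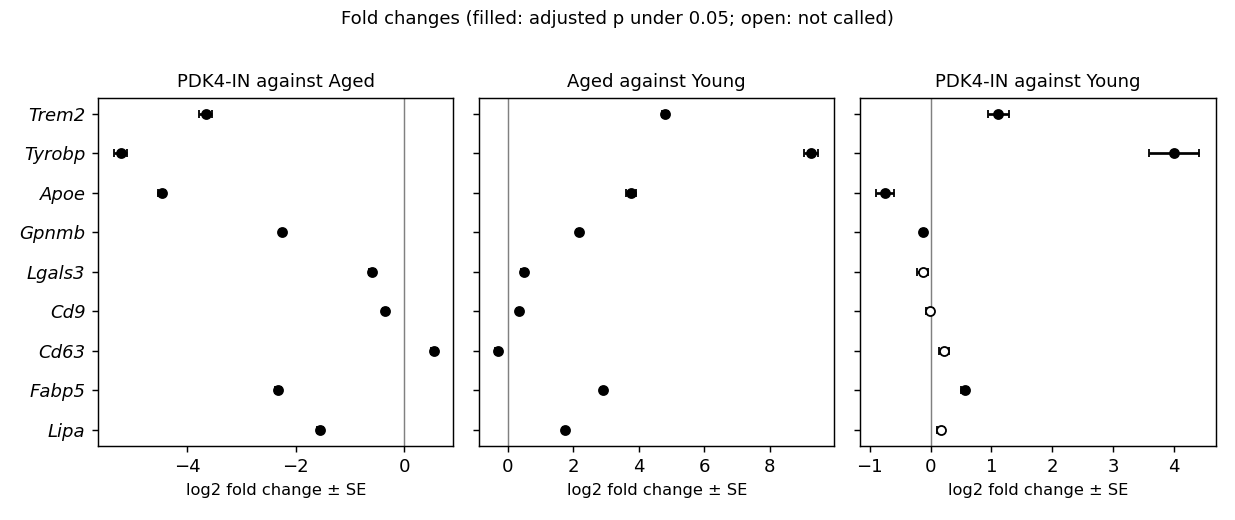
Log2 fold change (x axis, ± SE) of the 9 genes in PDK4-IN against Aged, Aged against Young and PDK4-IN against Young, with filled points for genes past the adjusted p of 0.05 and open points for the rest, and an x range of its own in each panel. The first panel runs from -5.23 (Tyrobp) to 0.55 (Cd63), and in the third panel Lgals3, Cd9, Cd63 and Lipa are open.

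The third comparison set PDK4-IN against Young directly, fitted on all 9 libraries because no deposited table pairs these groups. Of the 9 genes, 3 were higher, 2 lower and 4 did not pass, where 29.0% of 16553 genes passed (13.3% higher, 15.7% lower), and 6 had ranges that did not overlap, as had 37.7% of all genes. The receptor pair stayed above Young. Trem2 had a log2 fold change of 1.11 ± 0.17 (adjusted p = 0.0006, edgeR), and Tyrobp one of 4.01 ± 0.41 (adjusted p = 2.7e-05), resting on the 7 Young counts, with a ratio of summed CPM of 17.2 (exact 95% interval 8.08 to 43.7). Tyrobp alone was at least 4-fold higher (1.05% of all genes), and none of the 9 was at least 4-fold lower (0.217%). Fabp5 was 1.47-fold higher (0.56 ± 0.06, adjusted p = 4.7e-05).

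Apoe was lower in PDK4-IN than in Young libraries by 0.75 ± 0.14 on the log2 scale (adjusted p = 0.0024), and by 0.53 without Young replicate 3 (adjusted p = 7.5e-05, edgeR). Gpnmb was lower by 0.12 ± 0.04 (adjusted p = 0.043), a 1.09-fold difference that did not pass under 9 of 14 alternatives, among them library totals as the only scaling (adjusted p = 0.11) and fits without PDK4-IN replicate 2 (0.061) or 3 (0.11), or without Young replicate 1 (0.068) or 2 (0.063). Lipa (0.16 ± 0.06, adjusted p = 0.062), Cd63 (0.22 ± 0.08, adjusted p = 0.064), Lgals3 (-0.13 ± 0.09, adjusted p = 0.32) and Cd9 (-0.02 ± 0.06, adjusted p = 0.87) did not pass. With a gene-length trend removed, Lgals3 (-0.24, adjusted p = 0.0023) and Cd9 (-0.14, adjusted p = 0.034, edgeR) were called lower. Cd63 passed without Young replicate 3 (0.29, adjusted p = 0.0022) or PDK4-IN replicate 1 (0.27, adjusted p = 0.016), and Lipa without PDK4-IN replicate 3 (0.21, adjusted p = 0.037). The direction of Cd9 turned without Young replicate 3 (0.03).

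Levels of different genes were compared by the deposited TPM, which are scaled by transcript length. Cd63 had the highest TPM in every group, with 1700.0 ± 52.1 in PDK4-IN, 1288 ± 20.8 in Aged and 1569 ± 74.3 in Young libraries. In PDK4-IN libraries the TPM order was Cd63, Lgals3 (437 ± 17.3), Cd9 (181 ± 9.34) and Gpnmb (177 ± 11.1), which overlapped, then Fabp5 (54.7 ± 1.64) and Lipa (47.6 ± 6.46), which overlapped, Apoe (33.0 ± 3.20), and last Trem2 (10.5 ± 2.28) and Tyrobp (7.87 ± 1.33), which overlapped.

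In Aged libraries Cd63 was followed by Gpnmb (938 ± 9.36) and Apoe (922 ± 28.5), which overlapped each other, then Lgals3 (693 ± 6.88), then Tyrobp (327 ± 27.6) and Fabp5 (303 ± 9.57), which also overlapped. Cd9 (255 ± 11.4) came next, and Trem2 (160 ± 3.25) and Lipa (155 ± 4.33) overlapped in last place. The order of TPM thus placed the receptor itself low among the 9 even where it was highest. In Young libraries the TPM order was Cd63, Lgals3 (491 ± 53.6), Gpnmb (207 ± 16.0) and Cd9 (196 ± 3.45), which overlapped, then Apoe (56.1 ± 11.1), Lipa (45.6 ± 4.35) and Fabp5 (39.7 ± 1.63), of which Apoe overlapped Lipa and Lipa overlapped Fabp5, then Trem2 (4.96 ± 0.635) and Tyrobp (0.527 ± 0.469). Apoe had rank 7 of the 9 by TPM in PDK4-IN, rank 3 in Aged and rank 5 in Young libraries.

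**Figure D3:**
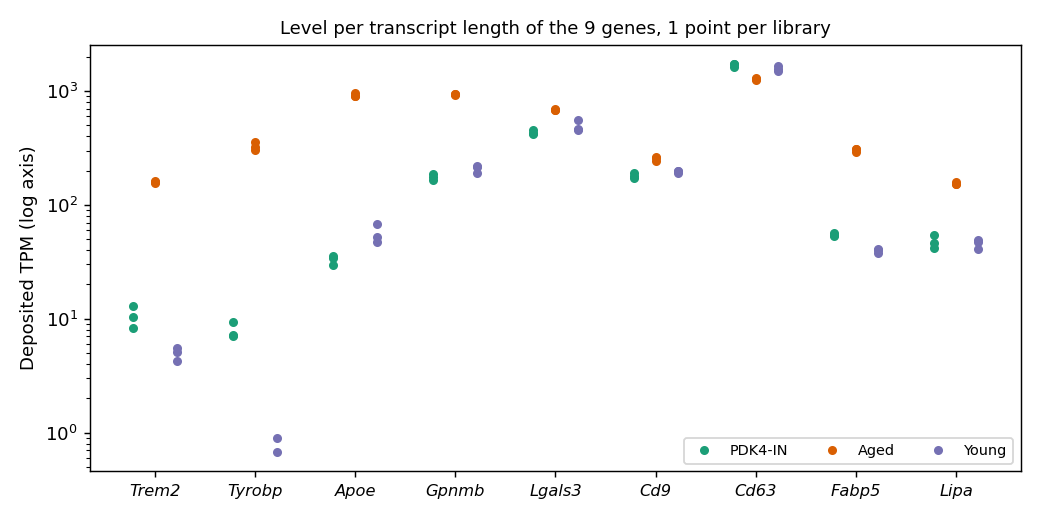
Deposited TPM (log axis) of the 9 genes, with 1 point per library and PDK4-IN, Aged and Young side by side for each gene. Tyrobp in Young replicate 1 was listed at 0 and has no point. Cd63 is at the top in every group, and Trem2 and Tyrobp are at the bottom in PDK4-IN and Young libraries.

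General macrophage markers moved with these genes. The summed level of 18 monocyte and macrophage markers was 149 to 169 CPM in PDK4-IN, 4616 to 4679 CPM in Aged and 48.0 to 57.5 CPM in Young libraries, and 11, 15 and 5 of the 18 reached 1 CPM in those groups. Of 17 tested, 15 were lower and 1 higher in PDK4-IN than in Aged, where 25.7% and 23.9% of all genes were. In Aged against Young, 15 were higher and 1 lower, beside 21.4% and 19.0% of all genes. The marker that ran the other way in both was Ly6c2 (0.704 CPM in PDK4-IN, 0.267 in Aged and 0.806 in Young). Lyz2 was the largest part of the sum in PDK4-IN (73.4 CPM) and Aged (2696 CPM) libraries. In Young libraries Cd68 was (24.8 CPM, beside 6.82 for Lyz2), so the sum rested on different genes in different groups. Most markers under 1 CPM in PDK4-IN or Young libraries passed the filter on low counts only through the Aged group. Their calls against that group were thus largely fixed by the filter. Adgre1, which encodes the macrophage surface protein F4/80, averaged 7.67 ± 0.159 CPM in PDK4-IN, 504 ± 7.07 in Aged and 0.350 ± 0.187 in Young libraries (SD, n = 3 each). Ptprc, the pan-leukocyte marker CD45, averaged 1.93 ± 0.656, 53.8 ± 2.04 and 0.696 ± 0.162 CPM in the same order. The complement gene C1qc had no count in any Young library. In bulk RNA, fewer macrophages and less of these transcripts per macrophage cannot be told apart.

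Summed markers of other cell types moved as well. The summed alveolar macrophage markers reached 12.1 to 13.3 CPM in PDK4-IN, 421 to 429 CPM in Aged and 5.06 to 6.43 CPM in Young libraries, with Ear1 at 0 throughout. Marco (333 CPM) and Mrc1 (68.9 CPM) made up most of the Aged sum. Not all of these markers followed, as Pparg averaged 3.31, 3.40 and 3.65 CPM in PDK4-IN, Aged and Young, and Chil3 at most 0.141 CPM. Summed neutrophil markers averaged 68.7 ± 8.94, 143 ± 3.71 and 9.98 ± 1.14 CPM, and summed B cell markers 5.32 ± 2.23, 52.3 ± 1.45 and 2.64 ± 0.700 CPM, in PDK4-IN, Aged and Young libraries. Mmp8 (95.7 CPM) made up most of the Aged neutrophil sum, whereas S100a8 was highest in PDK4-IN (65.6 CPM). Cd72 (48.6 CPM) made up most of the Aged B cell sum. The fibroblast sum was highest in PDK4-IN (6514 ± 253 CPM) and lowest in Aged (5545 ± 9.54 CPM), with 5972 ± 254 CPM in Young. The smooth muscle and pericyte sum was 719 ± 9.15 CPM in PDK4-IN and 661 ± 5.53 in Aged, against 2428 ± 59.4 in Young libraries, a log2 ratio of sums of -1.88 in Aged against Young and -1.75 in PDK4-IN against Young. Of these 10 markers, 8 were lower and 1 higher in Aged than in Young, and Acta2, the smooth muscle actin, averaged 190 ± 13.4 CPM in PDK4-IN, 194 ± 6.62 in Aged and 1133 ± 38.4 in Young libraries. Pecam1, an endothelial marker, averaged 0.939 ± 0.251 CPM in PDK4-IN, 3.97 ± 0.592 in Aged and 0.808 ± 0.101 in Young libraries. The summed endothelium markers averaged 13.0 ± 0.405, 24.5 ± 2.10 and 9.44 ± 0.827 CPM in the same order. The part of these markers in the results for the 9 genes was not tested.

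Each gene was also set against the macrophage marker sum of its own library, as log2 of gene CPM plus 0.5 over marker CPM plus 0.5. From this view the genes did not follow the markers alike. Tyrobp fell about as far as the marker sum in PDK4-IN against Aged, with a difference of -0.08 in the log2 ratio and overlapping groups (exact two-sided permutation p = 0.6). This sign turned with Adgre1 alone as the marker (1.00, with no overlap), with a pseudocount of 1 CPM (0.17), without Cd68 in the sum (0.17) and without PDK4-IN replicate 2 (0.005), and without PDK4-IN replicate 3 the ratio was lower by 0.20 with no overlap. Apoe was higher relative to the markers by 0.41, Trem2 by 1.29, Fabp5 by 2.54, Gpnmb by 2.60, Lipa by 3.31, Lgals3 by 4.25, Cd9 by 4.51 and Cd63 by 5.40, each with no overlap and the exact p of 0.1 that is the smallest for 3 libraries against 3. Since 99.4% of all genes were also higher relative to the marker sum and 0.276% lower, only their order among themselves is descriptive here.

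In Aged against Young the log2 ratio of Tyrobp was higher by 0.49, with no overlap, where only 0.205% of all genes were higher, and the other 8 were lower, from -1.91 (Trem2) to -6.76 (Cd63), as were 99.7% of all genes (exact p = 0.1 for each of the 9). The Young level of Tyrobp (0.113 CPM, 7 counts) lies below the 0.5 CPM added. Its sign turned with a pseudocount of 1 CPM (-0.36), without Cd68 in the sum (-0.36) and with Adgre1 alone (-2.28). In PDK4-IN against Young the ratio of Tyrobp was higher by 0.41 with no overlap (0.103% of all genes were), and this sign turned in the same 3 settings (-0.18, -0.19 and -1.27). The other 8 were lower by 0.62 (Trem2) to 2.28 (Apoe), as were 98.4% of all genes.

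**Figure D4:**
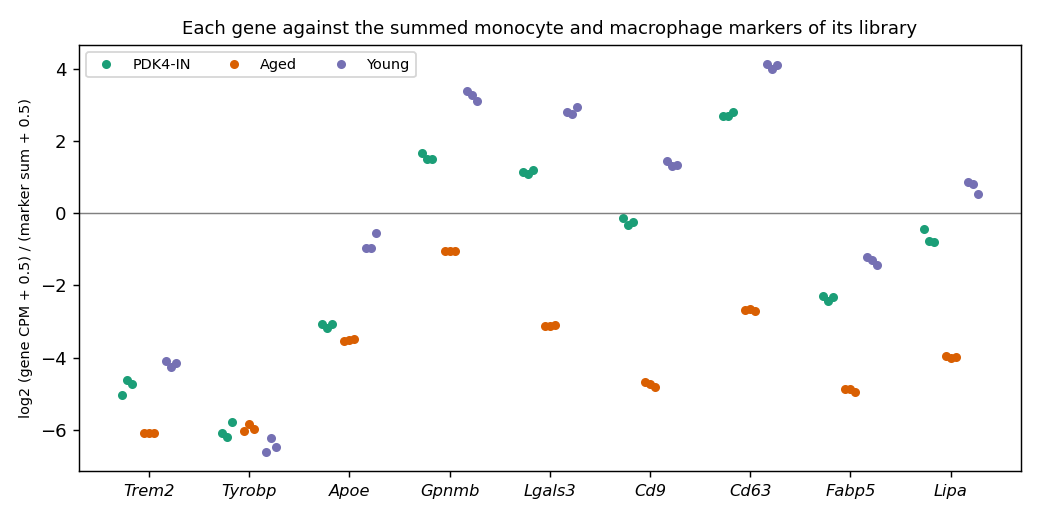
Log2 ratio of each gene's CPM plus 0.5 to the summed monocyte and macrophage marker CPM plus 0.5 (y axis), with 1 point per library for PDK4-IN, Aged and Young. Tyrobp has a mean of -6.025 in PDK4-IN, -5.943 in Aged and -6.434 in Young libraries. Its Young level (0.113 CPM) lies below the 0.5 CPM added, which largely sets that value. Cd63 has a mean of 2.72 in PDK4-IN, -2.68 in Aged and 4.08 in Young libraries.

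The pattern of Trem2 over the 9 libraries was closest to that of Cd14 (root mean square difference 0.180 on the log2 scale of CPM plus 0.5, each gene centred on its own mean), the lipopolysaccharide co-receptor of monocytes, among 13370 genes ranked. Lrmp (0.185), Lpxn (0.220), which encodes the focal adhesion protein leupaxin, Casp1 (0.229), the inflammatory caspase, and Adam8 (0.239), a leukocyte metalloprotease, followed. Cd14 averaged 17.6 ± 1.62 CPM in PDK4-IN, 177 ± 1.11 in Aged and 8.34 ± 0.545 in Young libraries, and is itself one of the macrophage markers. In the same order Lrmp averaged 0.787, 12.1 and 0.147 CPM, Lpxn 0.906, 14.3 and 0.218, and Casp1 0.700, 18.0 and 0.244. These genes met the rule for ranking, 1 CPM in at least 3 libraries, only through the Aged group. Their Young levels lie below the 0.5 CPM added, which partly sets their likeness to Trem2. With a pseudocount of 1 CPM, 3 of these 5 genes stayed among the closest 5. Of the other 8 lipid-associated genes, Apoe had rank 199, Fabp5 rank 209, Gpnmb rank 322, Tyrobp rank 334 and Lipa rank 432, whereas Lgals3 (rank 1522), Cd9 (rank 2298) and Cd63 (rank 11947) were far from Trem2. The ranks describe these libraries, in which all genes share depth and group structure.

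Further genes of lipid-associated macrophages were taken from a list of 30, of which 29 were tested and some also stand in the family lists that follow. In PDK4-IN against Aged, 21 were lower and 5 higher (25.7% and 23.9% of all genes), with a median log2 fold change of -2.02 (all genes -0.0009). In Aged against Young, 24 were higher and 3 lower (21.4% and 19.0% of all genes), with a median of 2.10 (all genes 0.01). Some of these genes averaged under 1 CPM in PDK4-IN or Young libraries and passed the filter on low counts only through the Aged group. Their calls against that group, such as that of Msr1 in Aged against Young, were thus largely fixed by the filter. The counts and medians include them. Mmp12, the macrophage elastase, averaged 20.8 ± 1.16 CPM in PDK4-IN, 851 ± 8.35 in Aged and 1.40 ± 0.634 in Young libraries. Cd36, a scavenger receptor for oxidised lipoproteins, averaged 7.29 ± 0.439, 357 ± 2.88 and 0.634 ± 0.222 CPM in the same order, and Msr1, another scavenger receptor, 1.83 ± 0.368, 190.5 ± 5.74 and 0.377 ± 0.0645 CPM. Their log2 fold changes in PDK4-IN against Aged were -5.35 (Mmp12), -5.60 (Cd36) and -6.69 (Msr1), beside -3.66 for Trem2, and these differences between genes were not tested.

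Some members of this list ran the other way in a comparison. Npc2, which moves cholesterol out of lysosomes, was higher in PDK4-IN than in Aged by 0.34 ± 0.07 on the log2 scale, and Fabp4, a fatty acid carrier, by 0.27 ± 0.07 (adjusted p = 0.0014 and 0.0081, edgeR). Fabp4 was also higher in Aged than in Young, by 1.04 ± 0.11 (adjusted p = 3.6e-05, edgeR), as most of the list was. Csf1, a growth factor for macrophages made by fibroblasts, was lower in Aged than in Young by 0.21 ± 0.05, and Lgals1, which encodes galectin-1, by 0.32 ± 0.07 (adjusted p = 0.0039 and 0.0050). In PDK4-IN against Young, 17 of 29 were higher, led by Mmp12 (3.86 ± 0.17) and Cd36 (3.46 ± 0.15), and 5 were lower, among them Igf1 (-0.69 ± 0.10) and the interleukin-1 receptor antagonist Il1rn (-0.39 ± 0.06), with a median of 0.36 (all genes 0.02). Of all genes, 13.3% were higher and 15.7% lower.

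The genes listed for TREM2 and DAP12 signalling, which include proteases that cut TREM2, were mostly highest in Aged libraries. Of 17 tested, 16 were lower and none higher in PDK4-IN than in Aged (median -1.51), beside 25.7% and 23.9% of all genes. In Aged against Young, 14 were higher, none lower and 3 did not pass (median 1.10), beside 21.4% higher and 19.0% lower of all genes. The exception in the first comparison, Bcl10, named here after its value was seen, had a log2 fold change of -0.14 (adjusted p = 0.054, edgeR). Syk, the kinase that DAP12 recruits, averaged 20.5 ± 2.29 CPM in PDK4-IN, 120.3 ± 4.65 in Aged and 16.2 ± 0.604 in Young libraries. Vav1, a guanine nucleotide exchange factor of blood cells, averaged 1.14 ± 0.218, 51.6 ± 0.806 and 0.127 ± 0.131 CPM in the same order, and Pik3cg, a leukocyte lipid kinase, 0.738 ± 0.0889, 22.9 ± 0.920 and 0.475 ± 0.327 CPM. In Aged against Young, Vav1 and Pik3cg passed the filter on low counts only through the Aged group. Card9 did so in both comparisons with Aged (0.266 CPM in PDK4-IN and 0.0975 in Young libraries). Their calls there were thus largely fixed by the filter.

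In PDK4-IN against Young, 3 of these 17 were higher, 3 lower and 11 did not pass (median 0.04). These shares are near those of all genes (13.3% higher, 15.7% lower). Vav1 (3.03 ± 0.40) and the phosphatase gene Ptpn6 (0.87 ± 0.24) were higher, and the adaptor gene Blnk (-0.59 ± 0.11) and Adam10 (-0.31 ± 0.08), whose protease sheds TREM2 from the cell surface, were lower. Other TREM receptors and receptors that couple to DAP12 were low outside the Aged group. Of 14 listed, 9 passed the filter on low counts. Apart from Csf1r, these 9 averaged under 1 CPM in PDK4-IN and in Young libraries, and most passed only through the Aged group, so their being called lower in PDK4-IN than in Aged and higher in Aged than in Young was largely fixed by the filter. Clec5a averaged 0.235 ± 0.0323 CPM in PDK4-IN, 14.5 ± 0.310 in Aged and 0.131 ± 0.0275 in Young libraries, and Csf1r, the receptor for macrophage growth factors, 7.39 ± 0.558, 129 ± 2.85 and 5.19 ± 0.362 CPM. In PDK4-IN against Young 2 of the 9 were higher, Csf1r (0.48 ± 0.09, adjusted p = 0.0025) and Sirpb1c, whose reads may be shared with near-identical copies, and none was lower.

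**Figure D5:**
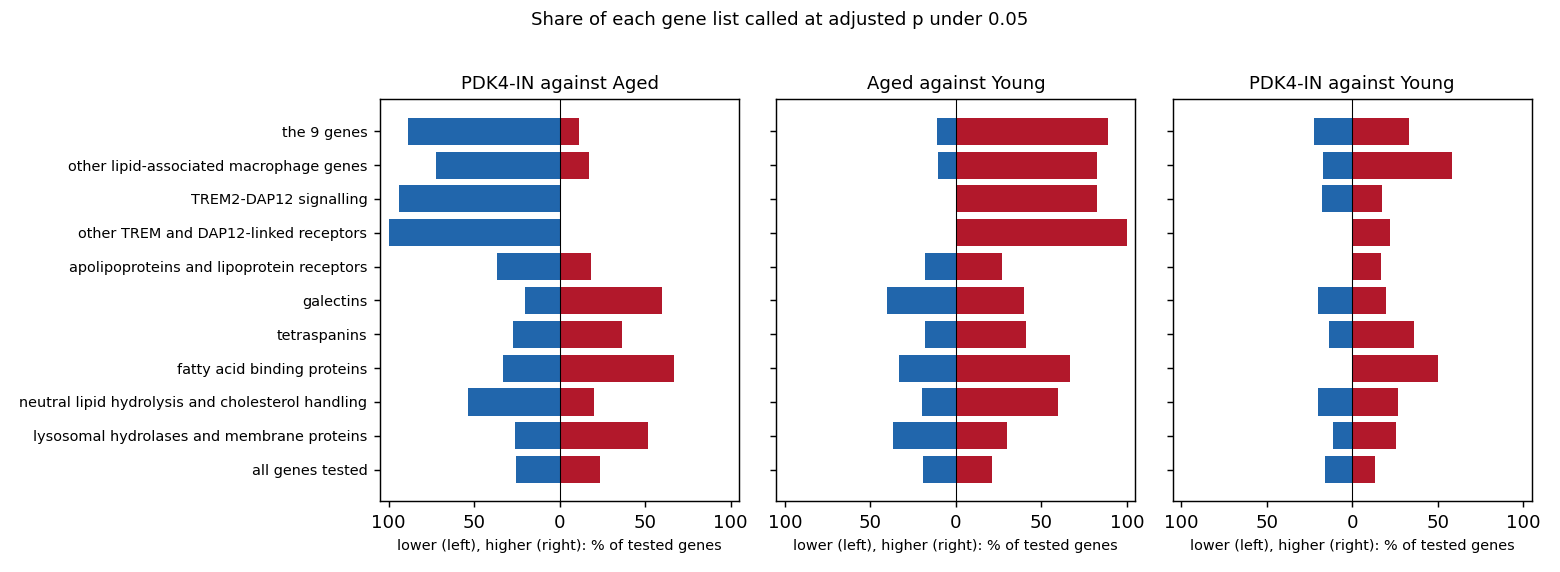
Share of the tested genes of each list that was called lower (left, blue) or higher (right, red) at adjusted p under 0.05, in percent, for PDK4-IN against Aged, Aged against Young and PDK4-IN against Young. TREM2-DAP12 signalling genes were called lower in 16 of 17 cases in the first panel, whereas the 27 lysosomal genes were called in both directions.

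Relatives of the 9 genes by family did not move as one, and their counts are read beside the shares of all genes, of which 23.9% were higher and 25.7% lower in PDK4-IN than in Aged, and 21.4% higher and 19.0% lower in Aged than in Young. Of 11 tested apolipoproteins and lipoprotein receptors other than Apoe, 4 were lower and 2 higher in PDK4-IN than in Aged (median -0.15), and 3 were higher and 2 lower in Aged than in Young. Vldlr, a receptor for triglyceride-rich lipoproteins, averaged 37.4 ± 1.58 CPM in PDK4-IN, 59.6 ± 1.80 in Aged and 28.9 ± 2.78 in Young libraries. Of 5 tested galectins other than Lgals3, 3 were higher and 1 lower in PDK4-IN than in Aged, with Lgals9 lower (-0.46 ± 0.05) and Lgals1 higher (0.27 ± 0.08).

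Of 22 tested tetraspanins other than Cd9 and Cd63, 8 were higher and 6 lower in PDK4-IN than in Aged (median -0.01), and 9 were higher and 4 lower in Aged than in Young (median 0.16). The 6 lower tetraspanins are a share near that of all genes, and the leukocyte tetraspanins had the lowest p among them. Cd53 averaged 7.54 ± 0.488 CPM in PDK4-IN, 129.9 ± 1.73 in Aged and 2.82 ± 0.732 in Young libraries, and Cd37 0.487 ± 0.180, 17.4 ± 1.21 and 0.114 ± 0.0216 CPM. The broadly expressed Cd81 (0.32 ± 0.04) and Tspan4 (0.34 ± 0.05) were higher in PDK4-IN than in Aged. Of the fatty acid binding proteins, 3 were tested in PDK4-IN against Aged, of which Fabp3 (0.82 ± 0.11) and Fabp4 were higher and Fabp7 (-1.47 ± 0.14) lower.

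Genes of neutral lipid and cholesterol handling were 8 lower and 3 higher of 15 in PDK4-IN against Aged (median -0.23) and 9 higher and 3 lower in Aged against Young (median 0.61). The cholesterol exporters Abca1 and Abcg1 were among the lower genes. Abca1 averaged 27.9 ± 7.21 CPM in PDK4-IN, 175 ± 3.73 in Aged and 40.5 ± 3.36 in Young libraries, and Abcg1 11.0 ± 0.979, 66.8 ± 2.68 and 10.7 ± 1.10 CPM. Of 27 lysosomal genes, 14 were higher and 7 lower in PDK4-IN than in Aged (median 0.16), the share lower being near that of all genes, and 8 were higher and 10 lower in Aged than in Young (median -0.0015). Gaa, the lysosomal alpha-glucosidase, averaged 490.1 ± 12.9 CPM in PDK4-IN, 334 ± 3.03 in Aged and 418 ± 18.5 in Young libraries, whereas Psap, the precursor of the saposins, averaged 1991 ± 57.4, 2682 ± 22.9 and 1610 ± 5.78 CPM. Beside Lipa, which the list leaves out, Gusb was lower as well, which encodes beta-glucuronidase (94.7 ± 2.03, 175 ± 0.629 and 95.6 ± 3.75 CPM).

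Pdk4, which encodes the kinase that PDK4-IN inhibits, had 63.1, 61.3 and 56.4 CPM in PDK4-IN libraries, against 79.3, 75.6 and 71.2 CPM in Aged and 26.1, 26.6 and 23.4 CPM in Young libraries. It was lower in PDK4-IN than in Aged by 0.32 ± 0.06 on the log2 scale (adjusted p = 0.0015, edgeR) and higher in PDK4-IN than in Young by 1.21 ± 0.07 (adjusted p = 4.0e-07). The inhibitor acts on the protein, so the transcript does not check the labels.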

How the data were processed

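The authors made 9 paired-end libraries, 3 per group, from RNA of microdissected alveoli. Bowtie 0.12.2 and the mouse build GRCm39 (mm39) are listed in the submitters' processing notes. The quantifier, annotation release and strandedness for these mouse libraries are not given in the sources used here, so reads of Cd9 cannot be told apart from those of the opposite-strand Gm26728, which held at most 4 counts a library. One table covers Young and Aged, the other Aged and PDK4-IN, with identical values for the Aged libraries. The authors deposited expected counts per gene (estimated, with fractions, not normalised) and TPM, together with gene length in bases. Deposited fold ratios, log2 fold changes and p-values are the authors' own comparisons and were not used. Rows without a gene name numbered 1401 of 55414.

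Counts were rounded and scaled to CPM by the library total, where 3 counts equal 0.113 to 0.154 CPM. Under R 4.3.3, edgeR 4.0.16 gave the tests (TMM scaling, genes kept by filterByExpr, quasi-likelihood F-test, Benjamini-Hochberg adjustment over all genes tested, called under 0.05), on 6 libraries for PDK4-IN against Aged and for Aged against Young and on 9 for PDK4-IN against Young. DESeq2 1.42.0 was an alternative. Ratios to the marker sum used SciPy 1.17.1 for exact permutation tests. The scripts were tested on simulated data. Other settings tried were library totals, upper quartile scaling, DESeq2 size factors, no filter, all or only the compared libraries, a replicate block, removal of a gene-length trend, and each library left out. Genes named were the 9 members, up to 4 of each other list per comparison (the 2 lowest p in each direction), the 5 closest to Trem2, Pdk4 and 8 defining markers. Genes named for few or no counts (Tcf21, Inmt, C1qc, Ear1, Chil3, Card9), and the markers Abca3, Pdpn, Cav1, Pparg, Cd68 and Acta2, were picked once their values had been seen. The members and lists were chosen with earlier results of these data known. Promoters came from RefSeq, with no window for 2 of the 9 genes (Tyrobp and Fabp5).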

Additional observations from a re-analysis of the deposited data

How the results depend on the processing

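In PDK4-IN against Aged and in Aged against Young, the fold changes of all 9 genes kept their direction and their call in each of 14 alternatives. In all, 353 of 378 member fold changes were the same, 9 lost the call, 13 gained it and 3 turned, all of them in PDK4-IN against Young. There, 5 members instead of 3 were called higher with library totals, with upper quartile scaling and with a replicate block, and 1 instead of 2 was called lower (Gpnmb lost) with library totals, upper quartile scaling, no filter and only the 6 compared libraries. With a library left out, the number higher was 3 to 4 and the number lower 1 to 2. Listed genes called lower numbered 17, 10 with only the 6 compared libraries and 10 to 23 with a library left out. The Cd9 difference from Young, -0.02, turned to 0.0157 with library totals and 0.0389 with upper quartile scaling. With a library left out it ran from -0.0701 (without Young replicate 2) to 0.0258 (without Young replicate 3). With the gene-length trend removed, Cd9 (-0.14) and Lgals3 (-0.24) were called lower in PDK4-IN than in Young. Removing the gene-length trend moved Cd63 in PDK4-IN against Aged to 0.28 and in Aged against Young to -0.20, and Cd9 in PDK4-IN against Aged to -0.58, with the calls kept. Same-numbered libraries did not deviate together (correlations of -0.04 to 0.182), so replicate numbers were not read as pairs, and the replicate block changed no member call in the other comparisons.

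Of the ratios to the marker sum, the ones that turned sign were all Tyrobp. In PDK4-IN against Aged it turned to 1.00 with Adgre1 alone, 0.17 with a pseudocount of 1 CPM, 0.17 without Cd68 and 0.005 without PDK4-IN replicate 2. In Aged against Young it turned to -0.36 with a pseudocount of 1 CPM, -0.36 without Cd68 and -2.28 with Adgre1 alone, and in PDK4-IN against Young to -0.18, -0.19 and -1.27, so that the number of members higher with no overlap was 0 instead of 1 in both. Without PDK4-IN replicate 3, the number lower with no overlap in PDK4-IN against Aged was 1 (Tyrobp) instead of 0, and the range over left-out libraries was 0 to 1. Of the 5 genes closest to Trem2, 3 stayed with a pseudocount of 1 CPM. The cause of these shifts was not tested. Tyrobp in Young (7 counts) and the 3 libraries per group set the precision, and no exact permutation p could go below 0.1.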
